A study of Mus musculus with 7 samples.

Results

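Collagens are the most abundant proteins of the extracellular matrix, and fibroblasts are their main source. The 44 collagen alpha chain genes examined here are all entries of the expression table whose symbol has the form of a collagen chain, out of 24908 gene symbols. The RNA came from a sorted fibroblast fraction of the mouse intestinal stroma with low Pdgfra and surface CD81, which lies beneath the crypts and supplies niche factors to epithelial stem cells. Wildtype controls gave 3 libraries, and mice with inactivated Apc gave 2 at day 4 and 2 at day 6. Inactivation used Apc flox/flox alleles and Villin-CreERT2, a tamoxifen-dependent recombinase under a promoter active in intestinal epithelium, so the sorted stromal cells were not the cells meant to lose Apc. Every column name, controls included, also reads GFP Low, a GFP gate shared by all groups. The labels give no ages, no genotype of the controls beyond wildtype and this GFP signal, and no statement that libraries came from separate animals. The p-values here therefore measure only the spread between these samples.

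Each collagen molecule is a trimer of alpha chains wound around each other through repeats of glycine and other residues, and the type is defined by which chains join. Fibrillar types I, III and V form the fibres of connective tissue, fibril-associated types such as XII, XIV and XVI sit on their surface, type VI forms beaded microfilaments around cells, and type IV forms the sheet-like network of basement membranes. Type I is made of Col1a1 and Col1a2 chains, whereas Col3a1 pairs with itself. New chains are hydroxylated, glycosylated and folded in the endoplasmic reticulum with the help of the chaperone encoded by Serpinh1, then trimmed and cross-linked outside the cell. The comparisons address how the collagen programme of these stromal cells differed while the neighbouring epithelium lacked Apc.

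Values are FPKM, fragments scaled to transcript length and to the mapped fragments of the library, a scale meant for comparison between genes and between libraries. The step that made these values is not given in the sources used here, so their comparability was not established. Column names place 1 control and both day 4 knockouts in a day 4 set, and 2 controls and 1 knockout in a day 6 set. The last knockout column names no day and was taken as day 6 knockout replicate 2, the only sample left. Between 10950 and 11381 entries per library reached 1 FPKM. The sort markers were present in controls, Cd81 at 134 ± 21.0 FPKM and Pdgfra at 58.5 ± 3.69 FPKM (SD, n = 3), and so was the niche factor Grem1 at 179 ± 15.5 FPKM. Several libraries stood apart. All Gapdh values of the day 4 set (193 to 277 FPKM) exceeded those of the day 6 set (66.5 to 91.4 FPKM). Day 4 knockout replicate 2 had the lowest summed level of 8 macrophage and dendritic cell markers (16.0 FPKM, against 89.0 to 252 in the others) and of 6 B and plasma cell markers (39.6 FPKM, against 240 to 2670). The sum of 9 epithelial markers was largest in day 6 knockout replicate 1 (35.5 FPKM, others 5.53 to 15.1), and so was that of 6 trophocyte markers (1450 FPKM, others 518 to 718). Of 8 fibroblast markers, Thy1 stayed under 1 FPKM in every library, and of 7 glial and neuronal markers 6 did. The sex-linked Ddx3y was at 39.9 FPKM in the first day 6 set control and at 34.8 and 9.10 FPKM in the day 6 knockouts, and at most 0.182 FPKM in the other 4 libraries.

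In 7 genes with a median of at least 10 FPKM, 11 values are listed as exactly 0 and were treated as missing. Among collagens these are Col1a1 and Col1a2 in the day 4 set control, and Col3a1 in the day 4 set control and in day 6 knockout replicate 2. Dcn and Gsn, the only genes with a higher mean than Col3a1 in the controls, are also listed at 0 in the day 4 set control. For Col1a1, Col1a2 and Col3a1 the wildtype group therefore has n = 2, both from the day 6 set.

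Of the 44 collagens, 26 reached 1 FPKM in at least 2 libraries and were tested, and the other 18 are given by level only. The 250 bases upstream of the RefSeq start of transcription (build GRCm38.p6) were available for 35 of the 44 genes in 38 windows. Letters in capitals mark matches to 3 promoter elements searched on both strands, the TATA box TATAAA, the CCAAT box CCAAT and the GC box GGGCGG, counting overlapping matches. A match counts at any position in the 250 bases, whether or not such an element would work there. Shown are Col5a3 and Col6a5, which fell at day 4, Col8a1, which had the highest day 6 log2 change of the tested chains, and Col3a1, the most abundant chain in the controls. The stretches overlap no annotated exon. Those of Col5a3 (chr9:20815068-20815317) and Col6a5 (chr9:105960644-105960893) and Col8a1 (chr16:57754738-57754987) are read from the minus strand, and that of Col3a1 (chr1:45311288-45311537) from the plus strand.
Col5a3: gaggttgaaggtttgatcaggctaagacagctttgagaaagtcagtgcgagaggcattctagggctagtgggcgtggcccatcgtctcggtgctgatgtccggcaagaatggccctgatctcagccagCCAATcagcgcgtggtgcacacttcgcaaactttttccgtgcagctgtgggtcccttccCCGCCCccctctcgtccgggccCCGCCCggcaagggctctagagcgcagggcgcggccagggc
Col6a5: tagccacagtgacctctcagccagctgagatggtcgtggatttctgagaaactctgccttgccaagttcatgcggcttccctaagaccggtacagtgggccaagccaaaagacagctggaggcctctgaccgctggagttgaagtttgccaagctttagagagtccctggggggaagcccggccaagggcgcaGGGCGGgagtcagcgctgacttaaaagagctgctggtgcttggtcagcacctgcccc
Col8a1: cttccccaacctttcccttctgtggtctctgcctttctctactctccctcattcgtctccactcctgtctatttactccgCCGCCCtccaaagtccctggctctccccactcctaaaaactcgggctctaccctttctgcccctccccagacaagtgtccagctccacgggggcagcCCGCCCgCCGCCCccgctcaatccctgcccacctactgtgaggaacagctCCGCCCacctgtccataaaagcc
Col3a1: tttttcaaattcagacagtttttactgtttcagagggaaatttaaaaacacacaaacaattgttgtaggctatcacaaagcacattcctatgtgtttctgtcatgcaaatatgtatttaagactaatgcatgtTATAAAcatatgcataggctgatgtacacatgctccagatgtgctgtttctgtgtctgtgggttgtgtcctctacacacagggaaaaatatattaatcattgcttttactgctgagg
The GC box occurred in 16 of 23 windows of tested collagens and in 32.7% of 32851 windows of all genes, the CCAAT box in 8 of 23 and 33.8%, and the TATA box in 2 of 23 and 12.4%. Over all 38 collagen windows, tested or not, the counts were 22, 13 and 5. The windows of all genes were not limited to genes tested here, so the shares are not from like sets. The Col3a1 stretch, at 35.2% G and C, holds a TATAAA match near its middle and no GC box match, while that of Col8a1 holds 4 GC box matches.

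In control cells a few fibrillar chains dominated. Both measured controls of Col3a1 (5307 and 6687 FPKM) made it rank 3 among all genes by control mean. Col1a1 (1976 and 2971 FPKM) and Col1a2 (1816 and 2158 FPKM) followed, with overlapping values. The type VI chains Col6a1 (853 ± 25.3 FPKM, SD, n = 3) and Col6a2 (755 ± 43.6 FPKM) came next, and Col6a1 exceeded Col6a2 in 3 of 3 controls. Col4a1 (326 ± 82.4 FPKM), Col14a1 (272 ± 61.8 FPKM), Col6a3 (186 ± 41.2 FPKM), Col5a1 (180 ± 23.4 FPKM) and Col4a2 (175 ± 37.0 FPKM) complete the 10 highest. Neighbours among these last 5 lay within each other's spread. Below them were Col5a2 at 149 ± 14.4 FPKM, Col18a1 at 136 ± 61.2 FPKM, Col16a1 at 95.1 ± 23.7 FPKM, Col5a3 at 56.5 ± 17.0 FPKM, Col8a1 at 45.0 ± 7.22 FPKM and Col15a1 at 25.3 ± 9.29 FPKM. All 44 chains together made up 2.95% and 3.62% of the summed FPKM of the day 6 set controls. Chains of cartilage and of epithelial attachment were scarce: Col2a1 and Col11a1 were listed at 0 in all 3 controls, Col10a1 reached at most 0.0123 FPKM in any library, Col7a1, the anchoring fibril of squamous epithelia, at most 0.161 FPKM, and Col17a1, a hemidesmosome component, at most 1.22 FPKM.

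**Figure D1:**
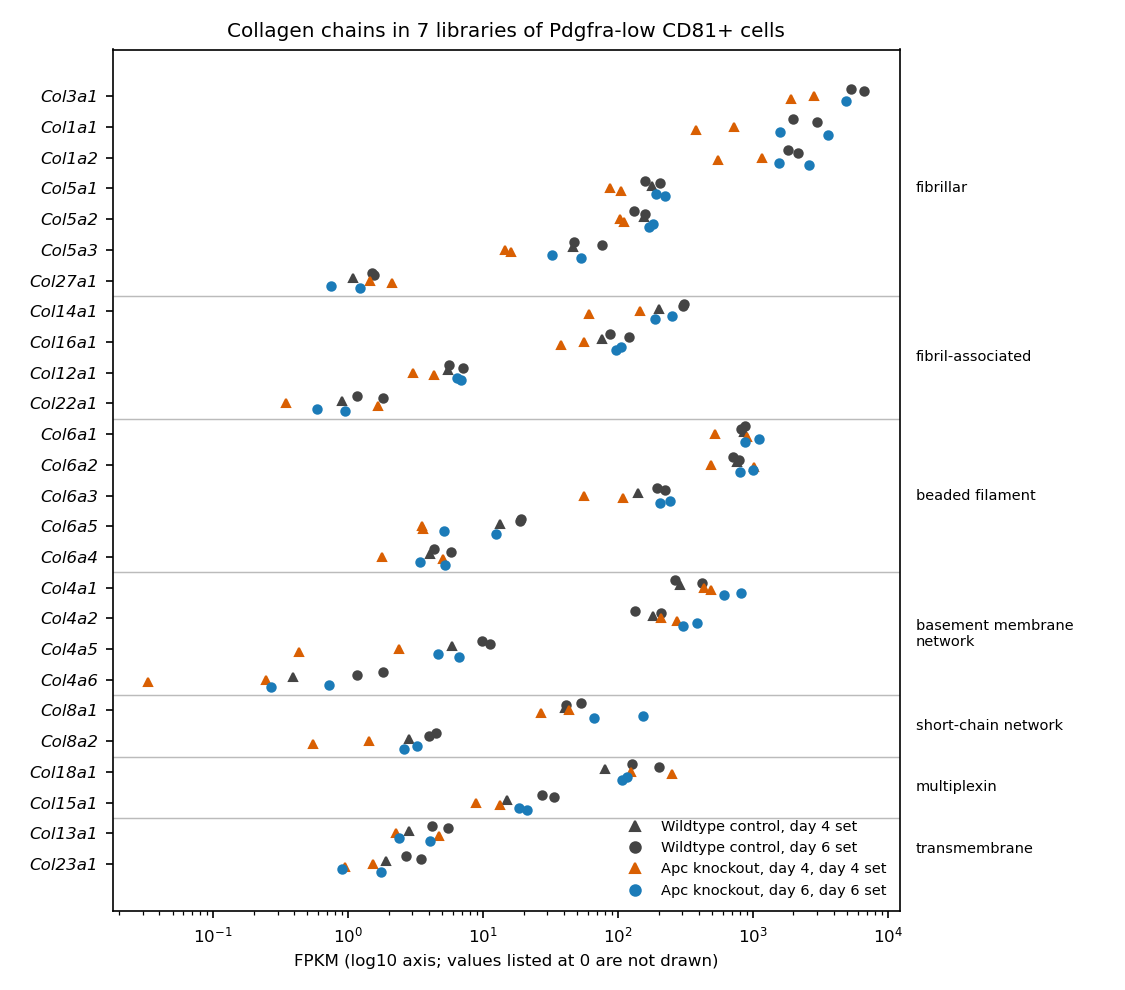
FPKM on a log10 axis for the 26 tested collagen chains, grouped by structural class, with 1 point per library (triangles for the day 4 set, circles for the day 6 set; grey for wildtype, orange for day 4 and blue for day 6 knockouts). Col3a1 reached 6687 FPKM at the top, and both orange points of Col5a3 and Col6a5 lie left of every control.

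At day 4 most tested collagens were lower than in wildtype, and 3 of the 26 passed the test over all genes. Col5a3, Col6a5 and Col4a5 fell, and none rose. Among all 11735 genes tested, 0.818% were called lower and 0.469% higher in this comparison. At an unadjusted p under 0.05, 16 of the 26 collagens were lower and none higher, against 12.4% and 6.2% of all genes. Both day 4 knockouts lay below every control for 16 of the 26 (22.0% of all genes) and above every control for 2 (12.5% of all genes). Both counts of 16 include Col4a6, which entered the test only through 2 controls above 1 FPKM and so had to be lower at day 4. Without it they are 15 of 25. Both counts also include Col1a1, Col1a2 and Col3a1, whose controls come from the day 6 set only. With zeros kept as values, 13 of the 26 were lower and none higher at an unadjusted p under 0.05. Against the day 4 set control alone, 5 of the 23 collagens with a value were lower and 1 higher at an unadjusted p under 0.05, and 7.71% of all genes passed in either direction. The median log2 change of the 26 was -0.78, that of all genes -0.06, and 22 of the 26 changes were negative, as were 56.9% of all genes. In bulk RNA, fewer cells of a type and less RNA per cell cannot be told apart. Other cell types' markers moved with day 4 as well. The summed level of 6 pericyte markers was lower, at 154 to 164 FPKM in controls and at most 78.7 FPKM at day 4, mostly through Rgs5 (135 to 147 FPKM against 63.7 and 37.8 FPKM). Of its 5 tested genes 3 were lower and 1, Kcnj8, was higher at an unadjusted p under 0.05, and none passed. At day 6 the pericyte sum was 46.5 and 133 FPKM, also under every control. The sum of 9 blood endothelial markers was higher, at 17.3 to 26.4 FPKM in controls and 31.6 and 37.8 FPKM at day 4. Sums of lymphatic (0.544 to 1.56 FPKM in controls, 3.65 and 3.52 FPKM at day 4) and mesothelial markers (0.154 to 0.392 against 1.61 and 2.12 FPKM) were also higher. So was the epithelial sum (5.53 to 9.64 against 15.1 and 10.2 FPKM). The telocyte sum overlapped (90.8 to 126 against 118 and 173 FPKM), with 1 of its 7 tested genes lower. The part of any of these cell types in these values was not tested. Of the genes behind the sort, Cd81 was at 94.8 and 32.4 FPKM at day 4, under all controls (110 to 149 FPKM; limma adjusted p = 0.185), and Pdgfra at 76.5 and 134 FPKM, above all controls (54.3 to 61.3 FPKM; limma adjusted p = 0.161). Among the fibroblast markers Cd34 fell, from 490 ± 30.6 FPKM (SD, n = 3) to 220 and 170 FPKM (-1.33 ± 0.20, limma adjusted p = 0.0381). Among the trophocyte markers the ligand Wnt2b fell, from 26.8, 38.2 and 22.4 FPKM to 10.5 and 11.3 FPKM (-1.31 ± 0.23, limma adjusted p = 0.0470). The part of such marker differences in the collagen values was not tested.

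Among fibrillar chains, Col5a3, which encodes the alpha-3 chain of type V collagen, had control values of 47.0, 76.1 and 46.4 FPKM and day 4 knockout values of 14.7 and 16.2 FPKM. No control overlapped the knockouts. Its log2 change on the log2(FPKM + 1) scale was -1.77 ± 0.28 (SE, limma adjusted p = 0.0427). The other type V chains, which nucleate and limit the diameter of fibrils, changed less. Col5a1 was at 158, 205 and 178 FPKM in the controls and 87.4 and 106 FPKM at day 4 (log2 change -0.89 ± 0.19, limma adjusted p = 0.0746), and Col5a2 at 132, 158 and 157 FPKM against 104 and 112 FPKM (-0.46 ± 0.17, limma adjusted p = 0.202). For both chains the knockouts lay under every control, but neither change passed.

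The major fibrillar chains were lower by size but did not pass. Col1a1 was at 722 and 382 FPKM at day 4 against 1976 and 2971 FPKM in controls (log2 change -2.20 ± 0.50, limma adjusted p = 0.0984). Col1a2 was at 1167 and 548 FPKM against 1816 and 2158 FPKM (-1.31 ± 0.44, limma adjusted p = 0.190). Col3a1 was at 2853 and 1924 FPKM against 5307 and 6687 FPKM (-1.35 ± 0.38, limma adjusted p = 0.158). These 3 chains have controls of the day 6 set only, so set and knockout cannot be told apart for them. When the zeros of the day 4 set control are kept as values, their log2 changes turn to 1.54, 2.34 and 2.83.

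Fibril-associated chains, which coat fibres and link them to other matrix, were lower in 4 of 4 tested cases, with none called. Col14a1 was at 311, 305 and 201 FPKM in controls and 145 and 61.4 FPKM at day 4 (-1.49 ± 0.37, limma adjusted p = 0.105). Col16a1 went from 87.6, 122 and 76.0 FPKM to 56.1 and 38.0 FPKM (2.02-fold lower by mean, limma adjusted p = 0.103), and Col12a1 from 5.64, 7.05 and 5.47 FPKM to 3.01 and 4.32 FPKM (-0.60 ± 0.19, limma adjusted p = 0.166). For all 3 the day 4 values lay under the lowest control. Col22a1 was below 2 FPKM in every library and its groups overlapped.

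Type VI collagen differed between its chains. Col6a5, a chain that can take the place of Col6a3 in the trimer, was at 19.2, 18.8 and 13.3 FPKM in controls and 3.51 and 3.60 FPKM at day 4 (log2 change -1.97 ± 0.32, limma adjusted p = 0.0427). Col6a3 itself was at 195, 222 and 141 FPKM against 56.0 and 108 FPKM (-1.22 ± 0.31, limma adjusted p = 0.108). In contrast Col6a1 (525 and 911 FPKM at day 4) and Col6a2 (493 and 1017 FPKM) overlapped the controls, with 1 knockout below and 1 above every control. Col6a4 was at 1.78 and 5.02 FPKM against 4.07 to 5.75 FPKM in controls. Col6a4, Col6a5 and Col6a6 are neighbours on mouse chromosome 9, and Col6a6, too low to be tested, was at 0.957, 0.960 and 0.294 FPKM in controls and 0.0302 and 0.0271 FPKM at day 4.

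Basement membrane chains split by gene pair. Col4a5, which with Col4a6 forms a minor type IV network, was at 9.76, 11.3 and 5.93 FPKM in controls and 2.39 and 0.436 FPKM at day 4, the largest fall of the 3 called chains (-2.14 ± 0.39, limma adjusted p = 0.0498). Its X-linked neighbour Col4a6 was at 1.81, 1.17 and 0.388 FPKM against 0.246 and 0.0331 FPKM. The main basement membrane chains did not follow: Col4a1 was at 434 and 486 FPKM at day 4 against 267, 420 and 290 FPKM in controls (0.53 ± 0.26, limma adjusted p = 0.323), and Col4a2 at 208 and 275 FPKM against 135, 208 and 183 FPKM (0.47 ± 0.25, limma adjusted p = 0.352). In both, the day 4 libraries lay above every control, though for Col4a2 by a margin under 1 FPKM in 1 library.

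The remaining classes are small. Col8a2, a short-chain network collagen of vessel walls and cornea, was at 4.48, 3.99 and 2.83 FPKM in controls and 1.42 and 0.550 FPKM at day 4 (-1.28 ± 0.26, limma adjusted p = 0.0640). Its partner Col8a1 was at 43.7 and 27.0 FPKM against 40.7 to 53.3 FPKM, with overlap. Col15a1, a multiplexin of basement membrane zones, was at 8.83 and 13.3 FPKM against 15.2 to 33.4 FPKM (-1.08 ± 0.32, limma adjusted p = 0.148). Col18a1, the source of endostatin, was at 125 and 252 FPKM against 80.2 to 202 FPKM. Its highest values were in day 4 knockout replicate 2 and the second day 6 set control, which also had the highest sums of smooth muscle markers (213 and 154 FPKM, against 59.5 to 100 in the others), and the part of such cells was not tested. The transmembrane chain Col23a1 was at 1.54 and 0.942 FPKM against 1.92 to 3.50 FPKM (-0.72 ± 0.27, limma adjusted p = 0.220), and Col13a1 overlapped.

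The 3 calls at day 4 rested on the pooled controls and on single libraries. Against the day 4 set control alone the log2 changes were -1.53 for Col5a3, -1.65 for Col6a5 and -1.65 for Col4a5, and none passed (limma adjusted p = 0.350, 0.350 and 0.428). The count of 3 became 0 with no filter on low values. Leaving out 1 library gave 0 calls for day 4 knockout replicate 2, 0 for either control of the day 6 set, and 5 for the day 4 set control. With controls of the same set, 18 of the 23 collagens with a value were lower, beside 53.3% of all genes. Their median was -0.39 against -0.03 over all genes.

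**Figure D2:**
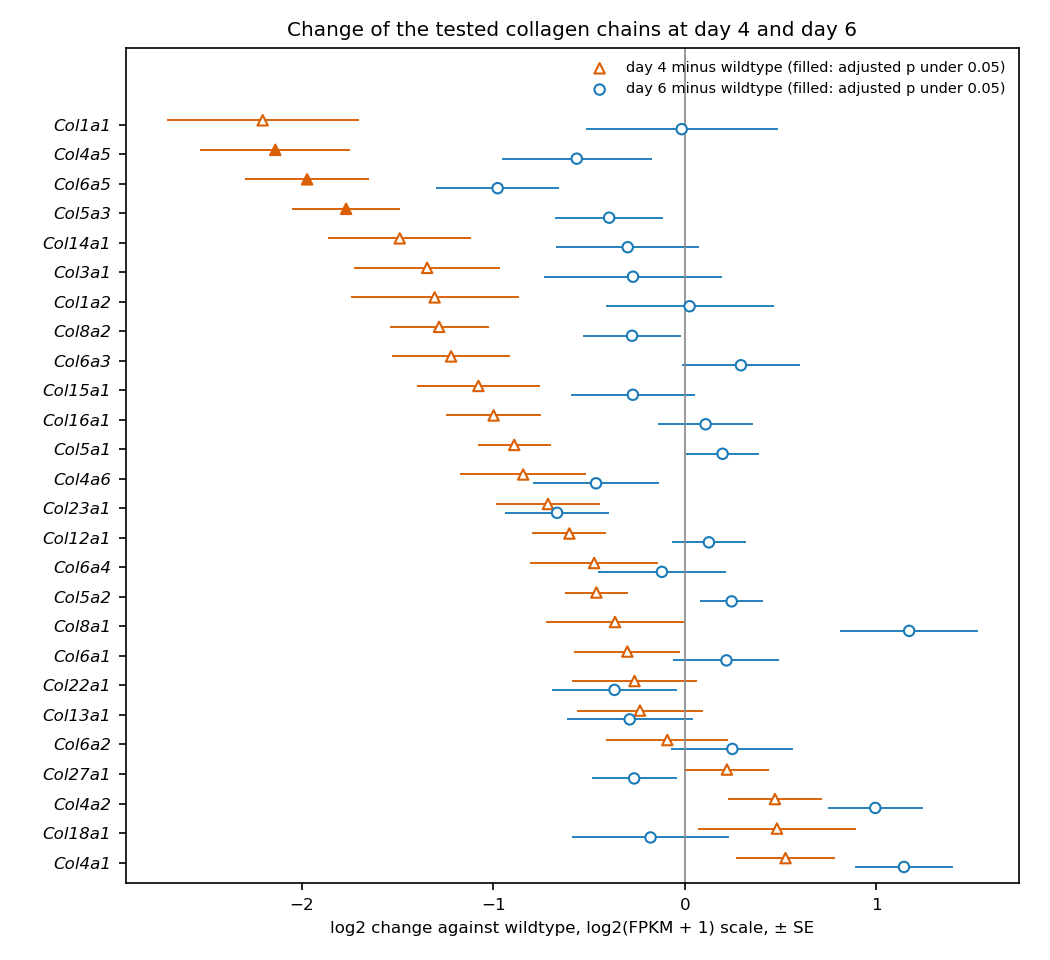
Log2 change against wildtype on the log2(FPKM + 1) scale (± SE) for the 26 tested collagens at day 4 (orange triangles) and day 6 (blue circles), ordered by the day 4 change. The 3 filled symbols, Col4a5, Col6a5 and Col5a3 at day 4, have a limma adjusted p under 0.05, and the other values are open.

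At day 6 no collagen passed the test, and most fibrillar chains were near their control levels. Over all genes 0.0426% were called higher and 0.0% lower. At an unadjusted p under 0.05, 3 of the 26 were higher (Col4a1, Col4a2 and Col8a1; 3.82% of all genes) and 2 lower (Col6a5 and Col23a1; 3.52% of all genes). Both day 6 knockouts lay above every control for 6 of the 26 (14.0% of all genes), and the available knockouts lay below every control for 3 (11.9% of all genes), among them Col3a1 with 1 knockout value. The median log2 change was -0.15, that of all genes -0.01. The 3 controls are the same as in the day 4 comparison, so the changes of both days share their error.

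Col4a1 and Col4a2 had their highest values at day 6, unlike the other 4 type IV chains, whose means were highest in controls. Col4a1 was at 818 and 610 FPKM against 267, 420 and 290 FPKM in controls (log2 change 1.14 ± 0.26, limma adjusted p = 0.351), and Col4a2 at 387 and 306 FPKM against 135, 208 and 183 FPKM (0.99 ± 0.25, limma adjusted p = 0.464). Neither overlapped the controls. Against the controls of the day 6 set alone the log2 changes were 1.07 and 1.04. Col4a1 and Col4a2 are transcribed away from each other, and their RefSeq starts lie 21 bases apart on chromosome 8, so that the first bases of both transcripts share the stretch chr8:11312805-11312826, shown from the plus strand because it is where both genes begin. Its capitals mark a GC box.
Col4a1 and Col4a2: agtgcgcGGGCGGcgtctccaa
Within a library the ratio of Col4a1 to Col4a2 ranged from 1.58 to 2.11 over all 7, the smallest spread between highest and lowest of the 13 chain pairs computed, next to 0.896 to 1.23 for Col6a1 to Col6a2. Endothelial cells also make these chains. The summed blood endothelial markers were at 27.1 and 28.3 FPKM at day 6 against 17.3 to 26.4 FPKM in controls. Only 1 of the 9, Cdh5, was under 1 FPKM in every library. Of the 8 tested, 0 had a negative day 6 log2 change (median 0.25), beside 51.0% of all genes. At an unadjusted p under 0.05, 0 of them were higher. The part of endothelial cells in the Col4a1 and Col4a2 values was not tested.

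Col8a1 was at 154 and 66.9 FPKM at day 6, against 53.3, 40.9 and 40.7 FPKM in controls (1.17 ± 0.36, limma adjusted p = 0.574). The higher value came from day 6 knockout replicate 1, the library with the highest epithelial and trophocyte marker sums. Col6a5 was at 5.15 and 12.4 FPKM, under all 3 controls (-0.98 ± 0.32, limma adjusted p = 0.585), and Col23a1 at 0.905 and 1.76 FPKM, also under all 3 (-0.67 ± 0.27, limma adjusted p = 0.670). The fibrillar chains Col1a1 (1586 and 3618 FPKM), Col1a2 (1563 and 2594 FPKM) and Col5a1 (191 and 222 FPKM) overlapped the controls. Col6a1 (1114 and 881 FPKM) and Col6a2 (1007 and 797 FPKM) lay above every control by small margins. Of the untested chains, Col28a1 was at 1.09 and 0.766 FPKM against 0.248 to 0.444 FPKM.

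Averaged over both days, no collagen passed and 0.162% of all genes were called higher and 0.0% lower. At an unadjusted p under 0.05, 9 of the 26 were lower (8.59% of all genes) and 2 higher (5.27% of all genes), the latter Col4a1 (0.83 ± 0.22, limma adjusted p = 0.159) and Col4a2 (0.73 ± 0.21, limma adjusted p = 0.182). The 9 include Col4a6, which entered the test only through controls, and Col1a1, whose controls come from the day 6 set only. Col6a5 had the smallest p of the family (-1.48 ± 0.27, limma adjusted p = 0.0806). It was the 1 collagen called when day 6 knockout replicate 2, the column without a day in its name, was left out.

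Between the 2 knockout days the values were mostly higher at day 6. No collagen passed, and no gene did (0.0% higher and 0.0% lower), while 1348 genes had an unadjusted p under 0.05. Of the 26 collagens, 13 were higher at day 6 at an unadjusted p under 0.05 (8.56% of all genes) and none lower (2.93% of all genes). Both day 6 libraries lay above both day 4 libraries for 18 of the 26, or the single value where 1 is missing (27.3% of all genes), and below for 2 (15.3% of all genes). The smallest p were those of Col5a1 (1.09 ± 0.21, limma adjusted p = 0.249), Col6a3 (1.51 ± 0.34, limma adjusted p = 0.266) and Col5a3 (1.37 ± 0.31, limma adjusted p = 0.266). Col1a1 differed most in size (2.19 ± 0.50, limma adjusted p = 0.268). The median log2 change was 0.77, that of all genes 0.05. Day, set and sex cannot be told apart in this comparison. The Y-linked Ddx3y was listed at 0 in both day 4 knockouts and was at 34.8 and 9.10 FPKM in the day 6 knockouts. With the controls of each set taken into account, the median over all genes was -0.001 and 50.2% of their changes were negative. Of the 23 collagens with a value, 16 stayed positive, with a median of 0.55. At an unadjusted p under 0.05, 2 were then higher and 1 lower, beside 3.80% of all genes in either direction.

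Ratios between chains of 1 type are free of a library's overall scale. The ratio of Col1a1 to Col1a2 was 1.09 and 1.38 in its measured controls, 0.619 and 0.696 at day 4, and 1.01 and 1.39 at day 6, so that the day 4 values lay under all others. Col5a3 relative to Col5a1 was 0.298, 0.372 and 0.261 in controls, 0.168 and 0.153 at day 4, and 0.169 and 0.241 at day 6, with no knockout reaching a control. Col6a3 relative to Col6a1 was 0.225, 0.270 and 0.163 in controls, 0.107 and 0.119 at day 4, and 0.219 and 0.235 at day 6. Col4a5 relative to Col4a1 was 0.0365, 0.0269 and 0.0205 in controls, 0.00550 and 0.000896 at day 4, and 0.00569 and 0.0109 at day 6. Col8a1 relative to Col8a2 was 11.9, 10.3 and 14.4 in controls and between 25.9 and 49.1 in the 4 knockouts. These ratios are descriptions of values already given, with no test.

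**Figure D3:**
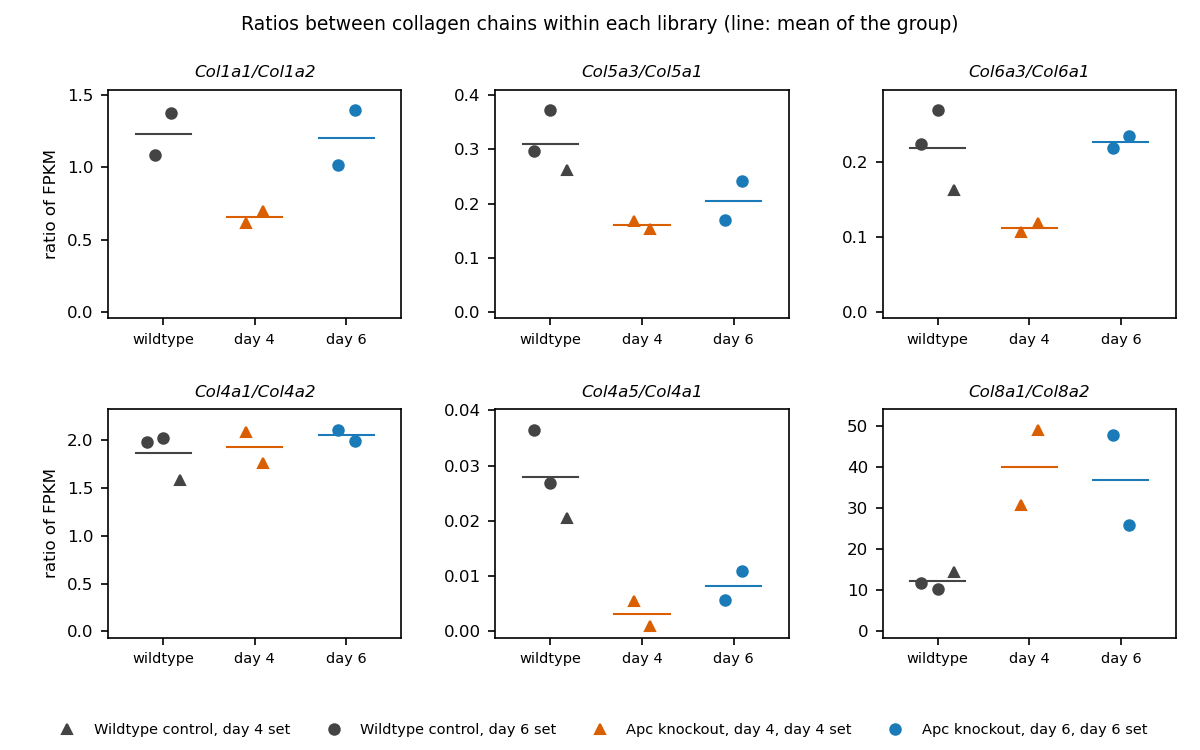
Ratio of FPKM between 2 collagen chains within each library, with 1 point per library, a line at each group mean and an axis that includes 0. For Col1a1 to Col1a2 the day 4 points are at 0.619 and 0.696, under the control points at 1.09 and 1.38, while Col4a1 to Col4a2 stayed between 1.58 and 2.11.

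With Col1a1, Col1a2 and Col3a1 left out because of their missing values, the other 41 collagens made up 0.764%, 0.859% and 0.877% of the summed FPKM in the controls, 0.617% and 0.927% at day 4, and 1.12% and 0.957% at day 6. By these shares day 6 lay above the controls, and day 4 on both sides of them. The summed FPKM count missing values as 0, among them Dcn and Gsn in the day 4 set control and Gsn in day 4 knockout replicate 2. Col3a1 is missing in that of day 6 knockout replicate 2. This raises the shares of these libraries. Basement membrane chains summed to 415, 641 and 480 FPKM in controls, 645 and 762 FPKM at day 4, and 1212 and 924 FPKM at day 6. Fibril-associated chains summed to 406, 437 and 284 FPKM in controls, 205 and 106 FPKM at day 4, and 364 and 292 FPKM at day 6.

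Genes that modify, fold, cross-link, bind or cut collagen were read from the same fit, in 8 lists. Of their 116 tested genes, 8 fell and 4 rose at day 4, beside 0.818% and 0.469% of all genes, and none passed at day 6 (0.0% lower and 0.0426% higher over all genes). The 4 that rose include Mmp8, which entered the test only through knockout libraries. Each list's day 4 counts are read against the same shares. All 12 calls kept their direction in every alternative run, and 6 of them also passed with zeros kept as values. With controls of the same set, day 4 has a single control, so these calls rest on the pooled controls. The alternatives in which a call passed ranged from 3 of 17 for Podn to 13 of 17 for Itga11. Aspn and Timp1 passed in 4 of 17 each, and Mmp3, Tgfb3 and Tnxb in 5 of 17 each.

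Among 14 tested enzymes of collagen hydroxylation and glycosylation, Colgalt2, a collagen galactosyltransferase, fell from 5.12 ± 0.303 FPKM (SD, n = 3) to 1.13 ± 0.0182 FPKM (n = 2) at day 4 (-1.52 ± 0.22, limma adjusted p = 0.0340; list median -0.47). P4ha1, a prolyl hydroxylase subunit needed for a stable helix, was at 52.7 ± 7.10 against 28.1 ± 1.25 FPKM and just missed (limma adjusted p = 0.0525). In the 13 tested genes of folding and export, Tmem38b, a cation channel of the endoplasmic reticulum, rose (1.19 ± 0.20, limma adjusted p = 0.0429; list median -0.29). Serpinh1, the collagen chaperone, was at 1333, 1301 and 958 FPKM in controls, 425 and 514 FPKM at day 4 and 797 and 1080 FPKM at day 6, so day 4 lay far under the controls without passing (-1.34 ± 0.26, limma adjusted p = 0.0570). In the 12 tested genes of processing and cross-linking none passed (list median -0.53). Lox, the lysyl oxidase that starts cross-links, was at 69.9, 58.0 and 123 FPKM in controls, 173 and 220 FPKM at day 4 and 315 and 194 FPKM at day 6, above every control in all 4 knockouts (limma adjusted p = 0.120 at day 4 and 0.335 at day 6).

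Fibril-organising proteoglycans and glycoproteins had the lowest list median of the 8 at day 4 (-1.15, 16 tested), with 3 fallen, beside 0.818% of all genes called lower: the small leucine-rich proteins Aspn (-1.42 ± 0.26, limma adjusted p = 0.0498) and Podn (-0.82 ± 0.15, limma adjusted p = 0.0492) and the tenascin Tnxb (-1.12 ± 0.20, limma adjusted p = 0.0492). These 3 missed the threshold with zeros kept as values, as did Mmp3, Timp1 and Tgfb3, which follow below. Of 9 tested collagen receptors, Itga11, the alpha subunit of a fibroblast integrin for fibrillar collagen, fell from 50.4 ± 7.37 to 12.7 ± 5.24 FPKM (-1.95 ± 0.26, limma adjusted p = 0.0302). Of 18 tested proteases and inhibitors, the collagenase Mmp8 (2.99 ± 0.50, limma adjusted p = 0.0427), the stromelysin Mmp3 (1.38 ± 0.25, limma adjusted p = 0.0492) and the inhibitor Timp1 (1.00 ± 0.18, limma adjusted p = 0.0492) rose. The membrane-anchored protease Mmp23 fell (-1.51 ± 0.19, limma adjusted p = 0.0302). Mmp8 was at 4.62 and 19.4 FPKM at day 4 against 0.0629 to 0.779 FPKM in controls. With every control under 1 FPKM it entered the test only through knockout libraries, so its rise is not independent of the filter. Of 18 tested TGF-beta genes, Tgfbi, a matrix protein that binds collagen (-2.05 ± 0.28, limma adjusted p = 0.0302), and the ligand Tgfb3 (-1.37 ± 0.25, limma adjusted p = 0.0498) fell, and the list median was -0.21. Of 16 tested basement membrane partners of collagen IV none passed. Nid1, which links laminin to type IV collagen, was at 334 and 215 FPKM at day 6 against 152 to 181 FPKM in controls, and Lama2, a laminin chain, at 105 and 70.6 FPKM against 43.6 to 57.0 FPKM (limma adjusted p = 0.585 for each).

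**Figure D4:**
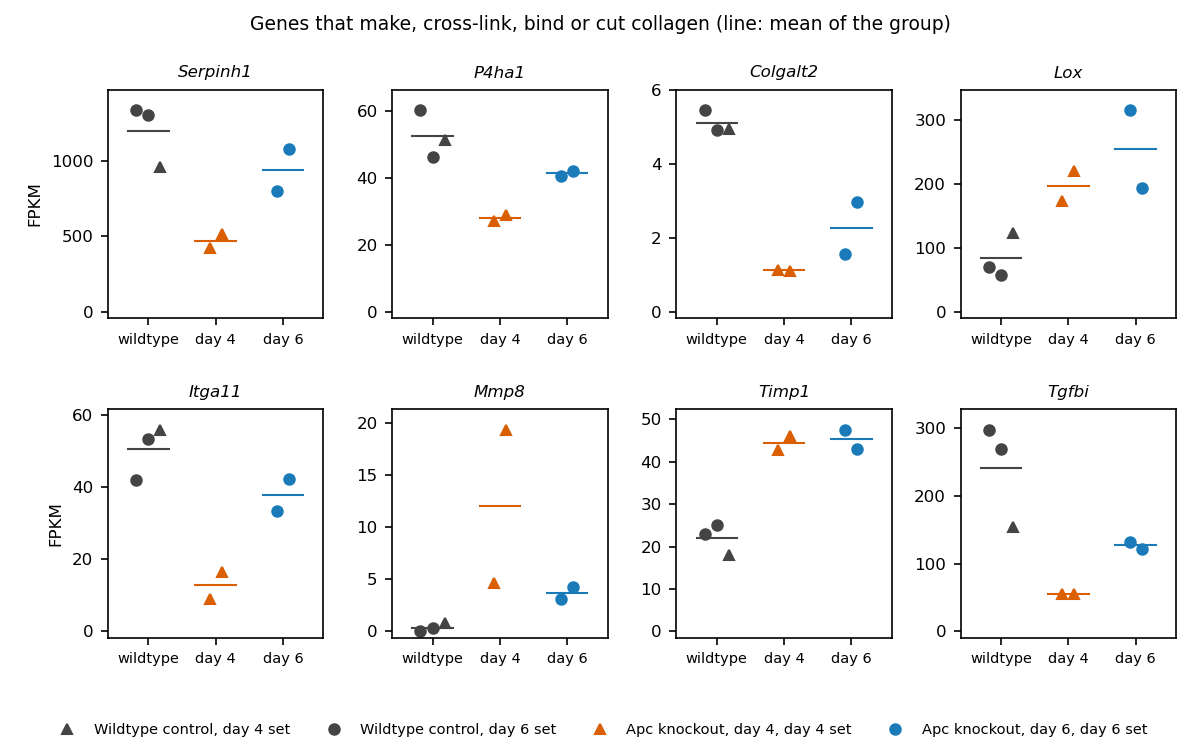
FPKM of 8 genes that make, cross-link, bind or cut collagen or respond to TGF-beta, with 1 point per library, a line at each group mean and an axis that includes 0. Serpinh1 at day 4 (425 and 514 FPKM) lies under all controls and Lox in all 4 knockouts lies above them.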

How the data were processed

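FPKM values were deposited by the authors in 1 table of 25493 entries under upper-case symbols. The step that made them is not given in the sources used here. Per the submitters' processing notes, kallisto 0.46.1, DESeq2 1.40.1 and mm9 were involved, without stated roles. The table holds no read counts, so no counting interval or detection floor is given. For 293 repeated symbols only that of highest mean entered (no collagen among them). A 0 was set missing where a gene's median was at least 10 FPKM. The 11735 genes that reached 1 FPKM in 2 or more libraries were analysed as log2(FPKM + 1), which understates changes of low genes, with limma 3.58.1 in R 4.3.3 (1 mean per group, all 7 libraries, intensity trend, two-sided, Benjamini-Hochberg over all genes tested, threshold 0.05), tested on simulated data. SD is between libraries on the FPKM scale. Columns were mapped to groups by name, and 0 value columns were left out.

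Members and lists were chosen with earlier results of these data known. Named were collagens called in any contrast, the 10 with the highest control mean, chains of types I, IV, V, VI and VIII, up to 5 per direction with the smallest p, and partner genes called or among the 2 smallest p of a list at day 4 or day 6. Other collagens are given by level and were named after their values were seen. Alternatives covered zeros, pseudocount, filters, scaling, the set of the controls, libraries fitted, the trend, repeated symbols and each library left out. Sequences are from RefSeq.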

Additional observations from a re-analysis of the deposited data

Results flagged for a closer look

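Col5a2, a chain of type V collagen, lay under every control in both day 4 knockouts and above every control in both day 6 knockouts. Its log2 change against wildtype was -0.46 at day 4 and 0.24 at day 6. Both days share their controls, so the difference between them is that between the knockout groups, 0.71 ± 0.18 (SE, limma adjusted p = 0.284), which did not pass.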

How the results depend on the processing

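The count of collagens called at day 4, which was 3, became 0 with no filter on low values and 0 against same-set controls only, and ranged from 0 to 5 as each library was left out. With both days averaged it ranged from 0 to 1. With zeros kept as values, the day 4 log2 changes of Col3a1, Col1a1 and Col1a2 turned to 2.83, 1.54 and 2.34, and that of Col1a1 over both days to 2.64. Of 740 refits of 45 collagen changes with an unadjusted p under 0.05, these 4 turned the direction, 25 lost a call and 4 gained one. Col5a3 and Col6a5 each passed in 11 of 17 alternatives and Col4a5 in 4 of 17, all with lower day 4 values. Over all genes the day 4 count was 55 higher and 96 lower, against 47 and 73 with zeros kept, 0 and 0 with no filter (2597 at an unadjusted p under 0.05), 2 and 0 with controls of the same set, and 22 and 56 with only the groups compared. Equal medians left 60 and 85, quantile normalization 75 and 92. No paired analysis was possible because no control column name matches a single numbered title and 1 day 6 column is tied to its group only. Without read counts, what depth limits could not be judged.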

Other observations

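Tgfb1, a ligand that drives collagen synthesis in fibroblasts, was at 17.6, 15.3 and 12.4 FPKM in controls, 24.0 and 27.6 FPKM at day 4 and 31.6 and 31.9 FPKM at day 6, above every control in all 4 knockouts, without passing (limma adjusted p = 0.0983 at day 4 and 0.185 at day 6). Thbs1, a matrix glycoprotein that can activate latent TGF-beta, was at 247, 159 and 194 FPKM in controls, 306 and 375 FPKM at day 4 and 572 and 379 FPKM at day 6. It did not pass on either day (limma adjusted p = 0.184 at day 4 and 0.344 at day 6). The TGF-beta genes called at day 4, Tgfbi and Tgfb3, fell.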
